A study of Homo sapiens with 6 samples.

Results

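The Hedgehog pathway and GLI genes are described here in MCF10A cells grown with and without their growth factors. The gene list was given by name as GLI2, GLI3, GLIS2, PTCH1, SMO and SUFU, 6 genes, of which 5 were found among the 19198 genes of the deposited table by their Ensembl identifiers and Gencode symbols. SMO was not analysed here. All 5 passed the minimum mean of 10 normalized counts over the libraries and were tested together with 16988 genes in all. GLI2 reached this mean only through the libraries without growth factors (mean 95.4, beside 1.14 with them). MCF10A is an established, non-tumorigenic human mammary epithelial cell line. The 3 control libraries came from cells in DMEM: F12 medium with 5% horse serum, 10 µg/ml insulin, 20 ng/ml EGF, 100 ng/ml cholera toxin and 0.5 µg/ml hydrocortisone. The 3 depleted libraries came from cells kept in the same basal medium and 5% horse serum with none of these 4 additions, a treatment that the study used to drive an epithelial to mesenchymal transition (EMT) without added TGFβ. All libraries are of 1 cell line, the labels do not say whether same-condition samples were separate cultures, and p-values then measure only the spread between these samples.

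Hedgehog ligands bind the receptor Patched (PTCH1), which otherwise holds the transducer Smoothened (SMO) inactive. Active Smoothened frees the GLI zinc finger factors from their inhibitor SUFU at the primary cilium, after which GLI2 acts mainly as an activator and GLI3 mainly as a repressor that is made by limited proteolysis. PTCH1, HHIP and GLI1 are textbook transcriptional targets of the pathway. In the mammary gland the pathway is best known in the stroma, and GLI2 is also known to be induced by TGFβ in several cell types.

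Libraries held between 7472418 and 28672630 reads on genes, and 3 reads, taken as the floor, correspond to between 1.76 and 6.71 normalized counts. The exact conditional intervals and the floors below cover counting error only, and reads carried no molecular identifiers. The intervals of log2 fold changes are from limma and rest on the spread between libraries. Calls required a change of at least 2-fold and a limma p under 0.05 after Benjamini-Hochberg adjustment. Libraries of both conditions deviated by transcript length, with Spearman correlations between length and a library's deviation from the gene mean of -0.11, -0.36 and 0.34 in control replicates 1 to 3 and -0.00, 0.25 and -0.16 in depleted replicates 1 to 3, across 13035 genes, which are not independent. Control replicates 2 and 3 deviated most, in opposite directions. In control replicate 3 the values of GLI3, GLIS2, PTCH1 and SUFU were 1.78 to 3.06 times the highest value of the other control libraries, and their values are also given without it. In these bulk samples, fewer cells of a type and less RNA per cell cannot be told apart.

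GLI2 and GLIS2 rose without growth factors, while GLI3, PTCH1 and SUFU did not pass the test. Of the 5 genes, 2 were called, both higher, where 6.33% of all genes tested were called in either direction, 4.36% higher and 1.97% lower. In the same 2 genes every depleted library lay above every control library, as it did for 13.5% of all genes tested. At its control level GLI2 could enter the test only by being higher without growth factors, so these counts partly follow from the filter. With no filter on low values GLI2 was also called (limma adjusted p = 0.00137). The median log2 fold change of the 5 genes was 0.30, beside -0.03 for all genes tested.

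**Figure D1:**
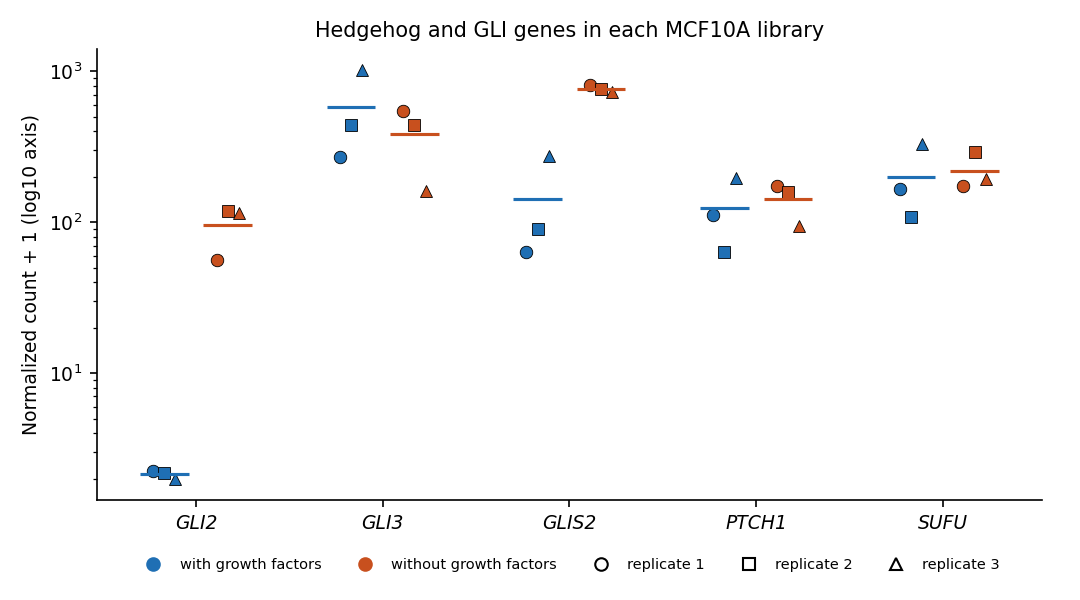
Normalized count plus 1 (y axis, log10) of GLI2, GLI3, GLIS2, PTCH1 and SUFU in each library, in blue with and in orange without growth factors, with marker shape for the replicate number and bars for the group means. GLI2 and GLIS2 do not overlap between conditions, and control replicate 3 (blue triangle) is the highest control for the other 4 genes but not for GLI2.

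GLI2, the main activator of the family, lies on the plus strand of chromosome 2 of hg38 from 120735623 to 120992653. It was at the limit of detection with growth factors, at 1.25, 1.17 and 0.984 normalized counts in control replicates 1 to 3, which are 1, 2 and 1 reads. Without growth factors it had 54.9, 117 and 114.0 normalized counts, from 60, 179 and 51 reads. All depleted libraries were far above all controls, with depleted replicate 1 the lowest. Pooled over libraries, the 290 reads against 4 gave a rate 83.3 times as high (95% exact conditional interval 32.2 to 308, counting error only). The log2 fold change was 5.42 (standard error 0.59, 95% interval 4.06 to 6.78, adjusted p = 0.00189), a fitted value that depends on the pseudocount, and the call held whichever of the 6 libraries was left out (adjusted p from 0.00285 to 0.0223).

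GLI3, the main repressor, lies on the minus strand of chromosome 7 from 41960949 to 42264100. Its level was 269, 441 and 1023 normalized counts in the control libraries and 543, 442 and 161 in the depleted ones. The groups overlapped, with the highest value in control replicate 3 and the lowest in depleted replicate 3. The mean was 578 ± 395 with and 382 ± 198 without growth factors (SD, n = 3 in each condition). The log2 fold change was -0.55 with a 95% interval from -1.91 to 0.81 (adjusted p = 0.685), an interval that holds both a fall and a rise. Without control replicate 3 the log2 fold change was -0.03, and without depleted replicate 3 it was -0.02.

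GLI1, both a factor and the usual readout of pathway activity, had 0, 2 and 1 reads in the control libraries and 3, 10 and 4 in the depleted libraries. That equals 0, 1.17 and 0.984 against 2.75, 6.56 and 8.94 normalized counts. Its mean was below the minimum of 10, so it was not tested, and the pooled rate was 6.51 times as high without growth factors (95% exact conditional interval 1.88 to 34.7, counting error only). GLI1 was thus near the floor in both conditions.

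Within the family, GLI2 took a larger share and GLI3 a smaller one in every depleted library. On the scale of normalized counts per kb of transcript, GLI2 made up 0.545%, 0.311% and 0.113% of the summed level of GLI1, GLI2 and GLI3 in control replicates 1 to 3. It made up 10.5%, 23.3% and 42.7% in depleted replicates 1 to 3. GLI3 supplied 99.5%, 99.1% and 99.7% in the control libraries and 88.5%, 74.4% and 51.2% in the depleted ones. The shares of a library add up to a whole, so the smaller GLI3 share largely restates the larger GLI2 share. The level of GLI3 itself overlapped between conditions and was not called. The control shares of GLI2 rest on 1, 2 and 1 reads, and its highest share fell in depleted replicate 3, where GLI3 was lowest (161 normalized counts). The log2 ratio of GLI2 to GLI3 (normalized counts + 1) was -7.86 ± 1.07 in control and -1.89 ± 1.39 in depleted libraries (SD, n = 3 in each), a difference of 5.97 with no overlap. An exact two-sided permutation test gave p = 0.1 (0.1 after adjustment over 2 ratios), the smallest value that 3 libraries against 3 allow. The log2 ratio of GLI2 to PTCH1 was also higher in every depleted library, at -0.60 ± 0.97 against -5.71 ± 0.89 (SD, n = 3 in each, exact two-sided permutation p = 0.1).

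GLIS2 encodes a GLI-similar zinc finger protein that is related to the GLI factors by its DNA-binding domain and is known for its role in the kidney and at the cilium. It lies on the plus strand of chromosome 16 from 4314761 to 4339597. GLIS2 had 62.7, 89.6 and 274 normalized counts in the control libraries and 811, 761 and 729 in the depleted libraries. The depleted libraries lay close together, within 1.11-fold, whereas the controls spread over 4.38-fold. The log2 fold change was 2.72 (standard error 0.52, adjusted p = 0.0193). Without control replicate 3 it was 3.34 (adjusted p = 0.00181), and leaving out any of the other 5 libraries gave 2.28 to 2.75 with the adjusted p between 0.0534 and 0.0809, which did not pass. PAM16, which overlaps GLIS2 on the opposite strand, had 8.94 to 89.5 normalized counts, and the strand setting of the read counting is not given in the sources used here.

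GLIS3, the related factor from the list fixed for this family, also rose, from 143, 51.6 and 233 to 384, 1407 and 892 normalized counts. Its log2 fold change was 2.70 (adjusted p = 0.0445), the call was lost when control replicate 1 or 2 or depleted replicate 2 or 3 was left out, and the adjusted p was 0.0513 by edgeR and 0.0789 by limma without trend. ZIC2, of the neighbouring ZIC family, had a log2 fold change of 0.08 (adjusted p = 0.967). Of the 11 GLI, GLIS and ZIC factors of the list, 6 were in the table and 5 were tested. Of these GLI2, GLIS2 and GLIS3 were called higher and none lower, where 4.36% of all genes tested were called higher.

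**Figure D2:**
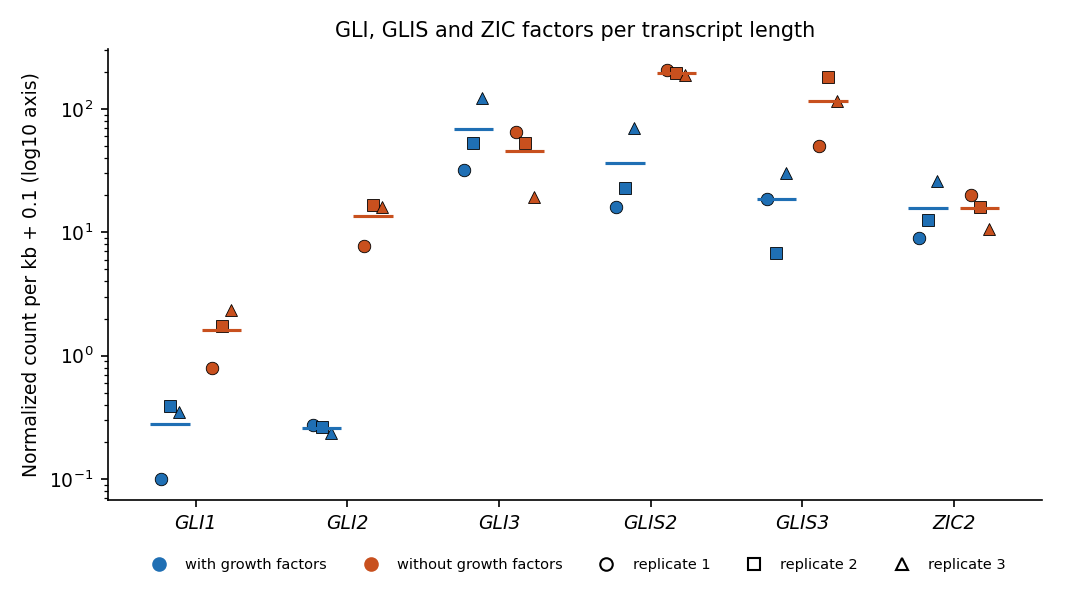
Normalized count per kb of the canonical transcript plus 0.1 (y axis, log10) of 6 GLI, GLIS and ZIC factors in each library, coloured and marked as in the plot of the 5 genes, with bars for group means. GLI3 leads by mean with growth factors (68.7 per kb) and GLIS2 without them (197 per kb), while GLI2 moves from 0.159 to 13.4 per kb.

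Ordered by level per kb of transcript with growth factors, GLI3 was at 68.7 ± 47.0, SUFU at 39.8 ± 22.6, GLIS2 at 36.5 ± 29.6, PTCH1 at 14.2 ± 7.85 and GLI2 at 0.159 ± 0.019 normalized counts per kb (SD, n = 3). The first 4 overlapped with their neighbours in this order, and GLI2 lay below all of them in every library. Without control replicate 3 the order of the means was the same, with GLI3 at 42.2, SUFU at 27.1, GLIS2 at 19.5, PTCH1 at 9.98 and GLI2 at 0.17, and GLIS2 and PTCH1 then no longer overlapped. Without growth factors GLIS2 led at 197 ± 10.6, followed by GLI3 at 45.4 ± 23.5, SUFU at 43.5 ± 12.4, PTCH1 at 16.4 ± 4.85 and GLI2 at 13.4 ± 4.92. GLIS2 was then above every other of these genes in each library. GLI3 and SUFU overlapped, as did PTCH1 and GLI2.

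PTCH1, the receptor that restrains the pathway and is itself induced by it, lies on the minus strand of chromosome 9 from 95442980 to 95517057. Its normalized counts were 110.3, 62.7 and 197 in control replicates 1 to 3 and 173, 158 and 93.9 in depleted replicates 1 to 3. The groups overlapped. The mean was 123 ± 68.0 with and 142 ± 42.0 without (SD, n = 3 in each condition). The log2 fold change was 0.30 with a 95% interval from -0.85 to 1.46 (adjusted p = 0.806), so a change of 2-fold upwards lay within the interval. Without control replicate 3 it was 0.71 (adjusted p = 0.289), and without control replicate 2 it turned to -0.10.

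SUFU, which binds GLI proteins in the cytoplasm and holds them back, lies on the plus strand of chromosome 10 from 102503972 to 102633535. The control libraries held 164, 108 and 327 normalized counts of it and the depleted libraries 173, 289 and 192. The depleted values lay inside the range of the controls. The log2 fold change was 0.24 with a 95% interval from -0.83 to 1.31 (adjusted p = 0.835), or 0.67 without control replicate 3 (adjusted p = 0.243) and -0.12 without control replicate 2.

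The promoters of these genes were searched because GLI2 and HHIP rose while PTCH1 did not pass. RefSeq windows of 250 bases before a transcript start (GRCh38.p14) were at hand for 3 of the 5 genes, 2 windows for GLI2, 5 for PTCH1 and 1 for SUFU, and 1 for HHIP. The GLI consensus GACCACCCA, searched on both strands, is held by 0.199% of all 35116 such windows. It was found on the opposite strand in 1 of the 5 windows of PTCH1, from base -172 to -164 relative to that start. The shorter core CCACCCA, which is part of the consensus, is held by 8.17% of all windows and was also found in 1 window of GLI2, from base -164 to -158. The RUNX core TGTGGT, held by 11.0% of all windows, was in none of the windows of GLI2, PTCH1, SUFU or HHIP and in those of GPR161 (from base -34 to -29) and BMP4 (from base -41 to -36), described further on. The 30 bases around each match are shown 5′ to 3′ on the strand of the gene, with the match in capitals. The first is chr9:95509419-95509448 (minus strand) and the second chr2:120735694-120735723 (plus strand), both intronic in some Gencode v44 transcripts of the gene and outside the canonical one. A match is a description of the letters and shows no binding.
PTCH1: gttgcctaccTGGGTGGTCtctctactttg
GLI2: tccttggtgcTGGGTGGggagagtccctgt

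Other genes of the pathway were taken from lists by role. The lists held 97 genes, of which 77 were in the table and 74 were tested. By the same test 10 were higher and 1 was lower without growth factors, with a median log2 fold change of 0.07 beside -0.03 for all genes tested. Leaving out GLI2, GLI3, GLIS2, PTCH1 and SUFU, 8 of 69 were higher and 1 was lower. Over all genes tested, 4.36% were called higher and 1.97% lower.

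**Figure D3:**
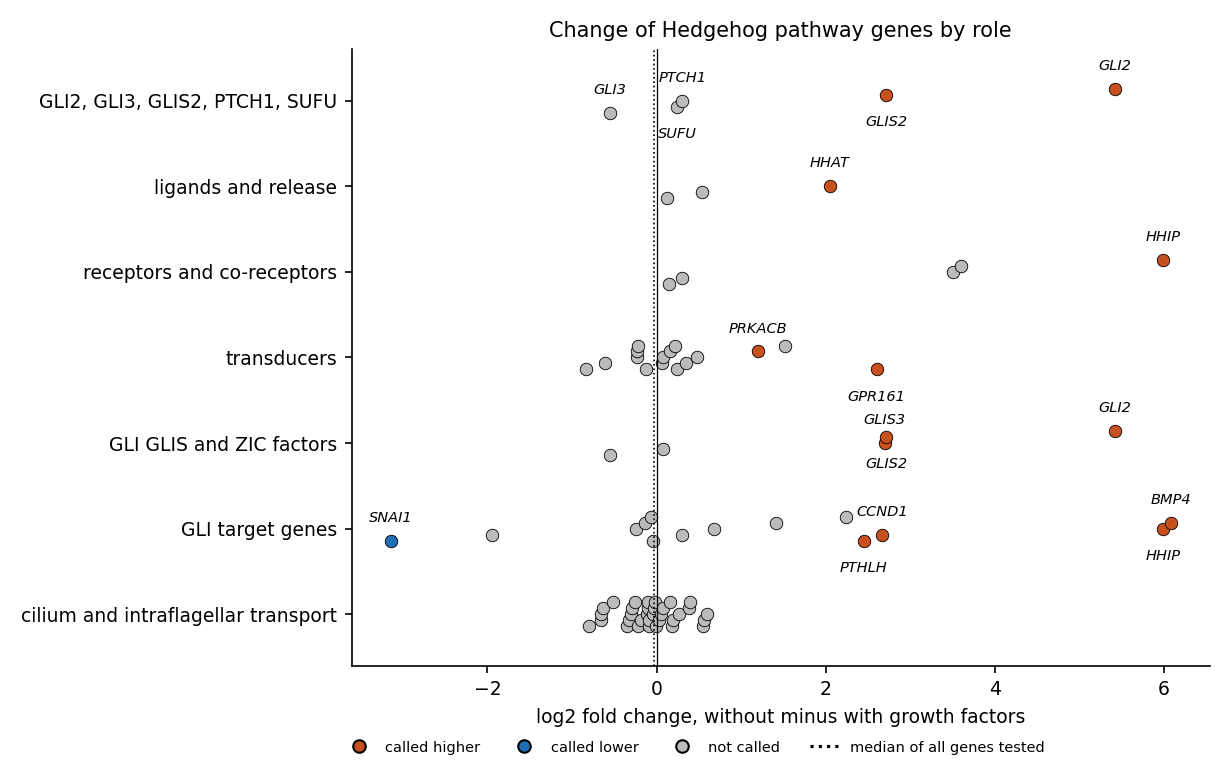
Log2 fold change, without minus with growth factors (x axis), of each tested gene in the 5 genes and the pathway lists by role (y axis, vertical scatter within a row only separates points). Called genes are coloured and named, grey genes did not pass, and the dotted line is the median of all genes tested, called genes are spread over the roles and none of the 33 cilium genes is coloured.

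Among the ligands and the genes for their release, SHH, IHH, DHH, SCUBE1 and SCUBE3 were not analysed here. HHAT, the acyltransferase that attaches palmitate to Hedgehog ligands, rose from 128, 63.3 and 104 to 376, 408 and 396 normalized counts. The depleted libraries were all well above the controls and close to each other. Its log2 fold change was 2.04 (standard error 0.37, adjusted p = 0.015), and the call was lost without depleted replicate 2 (adjusted p = 0.0844) or 3 (adjusted p = 0.0855). RNU5A-8P, inside HHAT on the opposite strand, had 7.52, 76.7 and 16.7 normalized counts in the controls and 157, 87.2 and 89.4 in the depleted libraries, also without overlap, and its part in the change of HHAT was not tested. DISP1 and DISP2, which release lipid-modified ligand from the cell, were not called, with log2 fold changes of 0.12 and 0.54.

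At the cell surface, 1 of 5 genes tested was called, where 6.33% of all genes tested were. It was HHIP, which rose from no reads. HHIP binds Hedgehog ligands and blocks them, and lies on chromosome 4. It had 0 reads in each control library and 9, 356 and 52 reads without growth factors, or 8.24, 233 and 116 normalized counts. Set against a floor of 3 reads per control library (mean 2.82 normalized counts), the depleted mean of HHIP was at least 42.3-fold higher. Depleted replicate 1 was far below the other depleted libraries. The bound was 22.1-fold without depleted replicate 2 and 35.6-fold to 61.9-fold without any of the other libraries. The log2 fold change was 5.98 by limma (adjusted p = 0.0193), a fitted value that depends on the pseudocount. HHIP reached the minimum mean of 10 only through the depleted libraries, so it could enter the test only as a higher gene. With no filter on low values its limma adjusted p was 0.0141. The adjusted p was 0.072 with a pseudocount of 10, 0.0546 at a minimum mean of 50, and between 0.0553 and 0.093 when control replicate 1 or 2 or depleted replicate 2 or 3 was left out.

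The co-receptors GAS1, BOC and CDON help ligands bind Patched. GAS1 had 10.0, 7.62 and 65.9 normalized counts in the controls and 529, 99.0 and 172 in the depleted libraries. These groups did not overlap, and the log2 fold change of 3.50 did not pass (adjusted p = 0.0584). The adjusted p of GAS1 was 0.0109 without control replicate 3 and 0.0916 to 0.181 without any other library. It was 0.0984 by edgeR and 0.00264 by DESeq2, which called GAS1. BOC had 0, 4.10 and 39.4 normalized counts against 146, 66.9 and 35.8. Depleted replicate 3 was below control replicate 3, and the log2 fold change of 3.60 did not pass (adjusted p = 0.141). The adjusted p of BOC was 0.015 without control replicate 3 and 0.233 to 0.325 without any other library. For CDON the log2 fold change was 0.14 (95% interval -1.61 to 1.89, adjusted p = 0.952).

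**Figure D4:**
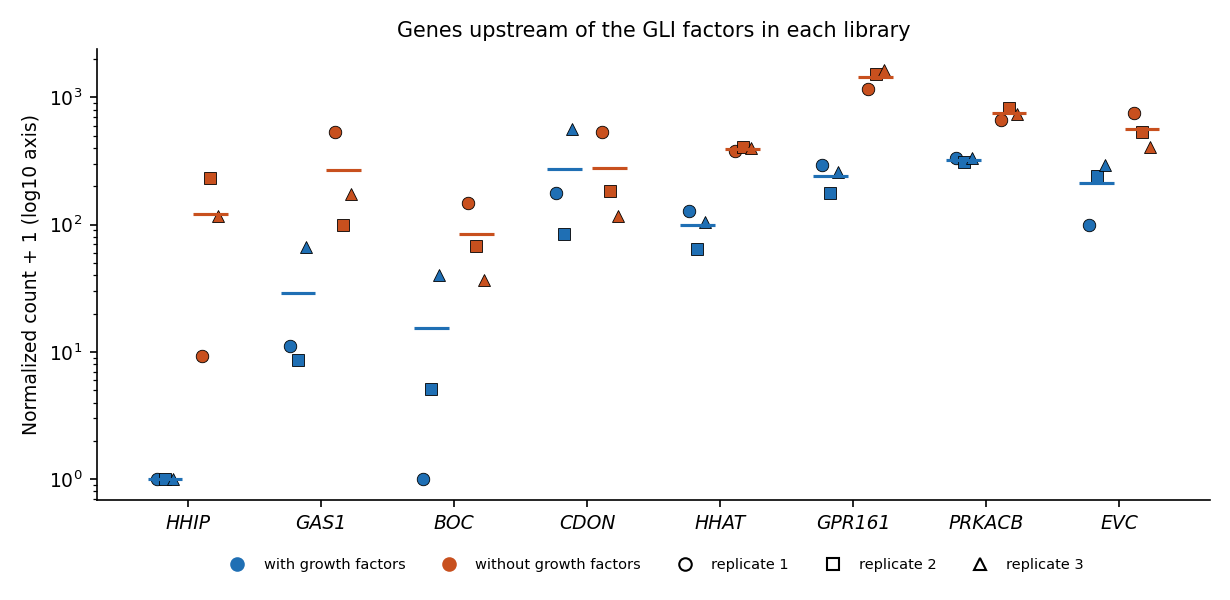
Normalized count plus 1 (y axis, log10) of 8 genes that act upstream of the GLI factors, in each library, coloured and marked as in the plot of the 5 genes, with bars for group means. HHIP has 0 reads in each control library, and HHAT, GPR161 and PRKACB hold the depleted libraries close together above the controls.

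Among the 16 transducers tested, 2 were called, both higher, where 4.36% of all genes tested were called higher. GPR161, a ciliary receptor that keeps protein kinase A active and so favours the repressor form of GLI3, went from 292, 176 and 256 to 1172, 1538 and 1648 normalized counts. Its log2 fold change was 2.60 (standard error 0.31, adjusted p = 0.00267), and it was called under all 18 alternatives. PRKACB, a catalytic subunit of protein kinase A, went from 331, 309 and 332 to 667, 829 and 745 normalized counts. Its log2 fold change was 1.20 (adjusted p = 0.0337), and it passed in only 1 of the 6 fits that left out a library, without control replicate 3, and not by limma without trend (adjusted p = 0.0612). PRKACA, the other main catalytic subunit, had a log2 fold change of -0.23 (adjusted p = 0.824). For EVC, a ciliary partner of Smoothened, the groups did not overlap and the log2 fold change of 1.52 did not pass (adjusted p = 0.102).

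The listed target genes of GLI proteins moved in both directions. Of 14 tested, BMP4, CCND1, HHIP and PTHLH were higher, SNAI1 was lower, and the median log2 fold change was 0.49. Of all genes tested, 4.36% were called higher and 1.97% lower. CCND1, the gene of cyclin D1, which drives entry into the cell cycle, went from 1355, 4257 and 735 to 11808, 8902 and 10259 normalized counts (log2 fold change 2.66, adjusted p = 0.0313). PTHLH, the gene of parathyroid hormone-related protein, went from 27.6, 38.7 and 23.6 to 72.3, 250.5 and 246 (log2 fold change 2.45, adjusted p = 0.0435). Neither kept its call in most fits with a library left out, where the adjusted p reached 0.114 for CCND1 and 0.198 for PTHLH. The call of CCND1 was also lost by edgeR (adjusted p = 0.064) and by limma without trend (0.0621), and that of PTHLH by limma after quantile normalization (adjusted p = 0.069), at a minimum mean of 50 (0.0516) and without trend (0.0509). The ligand gene BMP4 and the repressor gene SNAI1 kept theirs, with log2 fold changes of 6.08 (adjusted p = 7.57e-04) and -3.14 (adjusted p = 0.0079). BCL2, which restrains cell death, had a log2 fold change of 2.23 and did not pass (adjusted p = 0.0558). Its adjusted p was 0.0724 by edgeR and 0.00469 by DESeq2, which called it. Of the defining targets, HHIP passed, GLI1 was too low to test, and PTCH1 did not pass. These genes also answer to other pathways.

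None of the 33 genes of the cilium and of intraflagellar transport was called by limma, where 6.33% of all genes tested were. The count tests edgeR and DESeq2 also called 0 of the 33. By limma 1 of the 33 had an unadjusted p under 0.05, as had 3400 of all 16988 genes tested. The median log2 fold change of the 33 was -0.09, beside -0.03 for all genes tested. IFT74, a subunit of the intraflagellar transport complex, had the lowest value at -0.80 (adjusted p = 0.208).

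The genes most like each member across the 6 libraries were taken by the root-mean-square difference of centred log2 values among genes with a mean of at least 100. NUAK1, CDH2 and CCN3 were nearest to GLI2, at 0.36, 0.36 and 0.41 on the log2 scale. GLI2 had only 1, 2 and 1 reads in the controls, so its log2 values there, and with them these distances, depend on the pseudocount. CLTCL1, ADAMTS6 and MTCL1 were nearest to GLIS2, at 0.25, 0.26 and 0.27. R3HDM1, ATXN2L and PROSER3 were nearest to GLI3 at 0.19, 0.24 and 0.25, and like GLI3 each was highest in control replicate 3 and lowest in depleted replicate 3. For PTCH1 the nearest were CHD6, PHC3 and ZNF175 (0.14, 0.14 and 0.15), and for SUFU they were TET2, FBXL20 and KDM3A (0.11, 0.11 and 0.12). Each of these was, like PTCH1 and SUFU, highest in control replicate 3 and lowest in control replicate 2.

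Markers of cell types were checked beside these results, again where 6.33% of all genes tested were called in either direction. The labels call the cells luminal ductal, and the controls held both the basal keratin KRT5 (12739 to 38503 normalized counts) and the luminal keratin KRT8 (2442 to 8635). In depleted replicates 1 to 3 KRT5 had 562, 10908 and 14997. KRT17 (19236, 61385 and 123480) and TP63 (8.24, 64.9 and 42.5) were also lowest in depleted replicate 1. The other basal markers were highest there, KRT14 (980, 193 and 306), ITGA6 (6817, 3668 and 3434) and ITGB4 (13337, 7270 and 5894). Depleted replicate 1 was also apart for the fibroblast markers PDGFRB (3322, 349 and 447) and DCN (4495, 449 and 481), but not for POSTN (11954, 12075 and 9413). Of 9 fibroblast markers tested, 8 were called higher without growth factors, and the summed level of the 10 listed markers was 709 to 1176 normalized counts in the controls and 38653 to 90165 in the depleted libraries. Of the fibroblast markers, LUM, PDGFRA and PDGFRB reached the minimum mean of 10 only through the depleted libraries (control means 1.58, 0.941 and 6.95), as did the endothelial marker CDH5 (5.93). THY1, a defining fibroblast surface marker too low to test, had 1 read in all in the controls and 11 in the depleted libraries, a pooled rate 12.6 times as high (95% exact conditional interval 1.84 to 544, counting error only). Some of them, such as VIM, are also textbook EMT markers, and their part in the rise of GLI2, GLIS2 and HHIP was not tested. Of 6 basal markers tested TP63 was called lower, with the summed list at 42471 to 65489 normalized counts in the controls and 40940 to 148153 in the depleted libraries. The median log2 fold change of the basal markers was -0.68, with only KRT17 (2.44) and KRT14 (2.69) above 0. Of 6 luminal markers KRT19 was called lower, with sums of 8048 to 15910 and 18173 to 29067, and the median log2 fold change was -1.15. The depleted sums were mostly KRT8 and KRT18, with log2 fold changes of 1.10 and 1.17. KRT19, ESR1, MUC1 and GATA3 had log2 fold changes of -2.31, -2.99, -2.02 and -0.28. Of 3 endothelial markers CDH5 was called higher (log2 fold change 3.37), with sums of 167 to 1787 and 265 to 1610. KDR went the other way, with every depleted library below every control, and did not pass (log2 fold change -3.83, limma adjusted p = 0.193). PECAM1 had a log2 fold change of 0.09. The leukocyte list, of which 1 marker was tested and none called, summed to 272 to 884 and 86.5 to 656. PTPRC, the common leukocyte marker, was too low to test, with 1, 0 and 2 reads in the controls and 11, 21 and 5 in the depleted libraries, a pooled rate 14.2 times as high (95% exact conditional interval 4.49 to 71.8, counting error only). The part of these markers in the results above was not tested either.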

How the data were processed

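RNA-Seq was made from total RNA of MCF10A cells with the TruSeq Stranded Total RNA kit after removal of ribosomal RNA, as single-end reads of 100 bases, in 3 libraries per condition. Per the submitters' processing notes and the study's methods, reads were trimmed with cutadapt 1.6, aligned to hg38 with TopHat2 and counted with HTSeq 0.6 over Gencode genes. The deposited values are a signal per gene, the authors' read counts divided by DESeq2 (version 1.8.1) size factors, and are not corrected for length. All values were whole multiples, within 0.01, of what 1 read is worth, which gave the reads behind each value and 7472418 to 28672630 reads per library. The strand setting of the counting, which decides how reads of overlapping genes are assigned, is not given in the sources used here. The series text speaks of 2 replicates per sample, and the labels give 3 per condition, which were used.

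Testing, limited to genes whose mean reached 10, used limma 3.58.1 (lmFit, eBayes with trend, in R 4.3.3) on log2(normalized count + 1), so fold changes of low genes are understated, with Benjamini-Hochberg adjustment over 16988 genes. The count tests edgeR 4.0.16 and DESeq2 1.42.0 on the recovered reads were alternatives. Of 19198 identifiers, 18913 were given symbols and coordinates by Gencode v44. Ratios were compared by an exact permutation test. The scripts were tested on simulated data. The genes and lists were chosen with earlier results of these data known. Named were the listed genes, every called gene of the pathway lists, GLI1, HHIP and the ligands whatever their values, and for each listed gene the 3 genes most like it among genes with a mean of at least 100. GLIS3's relative ZIC2, GAS1, BOC, CDON, EVC, PRKACA, DISP1, DISP2, BCL2 and IFT74 were named after their values were seen. SMO, and with it the ratio of SMO to PTCH1, was not analysed here.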

Additional observations from a re-analysis of the deposited data

How the results depend on the processing

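GLI2 was called in each alternative in which it was tested, and at a minimum mean of 50 it was not tested, which left 1 of the 5 genes called. GLIS2 was called in all alternatives except 5 of the 6 fits with a library left out, so that 1 to 2 of the genes were called when each library was left out in turn. GLI3 stayed uncalled and negative throughout. PTCH1 turned to -0.044 on the log2 scale with the length and GC correction, with and without the replicate block, and ranged from -0.10 to 0.71 with a library left out. SUFU ranged from -0.12 to 0.67. The length and GC corrections were chosen after seeing the data. Of the pathway lists, 11 genes were called, against 7 without the trend, 9 by edgeR, 15 by DESeq2 and 4 to 14 with a library left out. Over all genes 1076 were called, against 2112 by DESeq2, 705 with the length and GC correction and the replicate block, and 445 (without depleted replicate 2) to 2483 (without control replicate 3) with a library left out.

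The difference in the log2 ratio of GLI2 to GLI3 ranged from 5.27 to 6.66 and that of GLI2 to PTCH1 from 4.65 to 5.64 with a library left out. With a pseudocount of 10 they were 3.71 and 2.90, and with 0.5 they were 6.35 and 5.49. The ratio of SMO to PTCH1 was not run.

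Same-numbered libraries did not deviate together (correlations -0.07, -0.28 and -0.32). Whether the numbers pair the samples is not settled by this, because deviations were taken from the means of only 3 libraries per condition. With the replicate block 2 of the 5 genes, 11 pathway genes and 967 of all genes were called. The block gave an adjusted p of 0.139 for PRKACB, 0.0502 for PTHLH and 0.0266 for GAS1. The block cannot change a difference of group means in this design, so the ratio differences of 5.97 and 5.12 are fixed under it and were not tested by it. At this depth GLI1 was too low to test, and GLI2 and HHIP in the controls were at or under the floor of 3 reads.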
